A study of Homo sapiens with 2 samples.

Results

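The 51 genes described here encode DNA repair proteins and were chosen by name and sorted by repair pathway. Measured values did not enter the rule, although earlier results of these data were known when the list was drawn up. They comprised 10 genes of nucleotide excision repair, 11 of base excision repair, 4 of mismatch repair, 12 of homologous recombination, 6 of end joining, 4 of damage signalling, 3 of the Fanconi anaemia pathway and 1 of direct reversal, out of 19775 genes that the array measured by at least 1 probe set naming no other gene. HT-29, a line of human colorectal adenocarcinoma cells, was transfected for 24 h either with a pool of siRNAs against MYC (MYC siRNA, 1 array) or with a non-targeting pool (control siRNA, 1 array), each at 20 nM, and was used after 48 h. The treatment field of the control sample reads None, whereas the protocol names the non-targeting pool. Both arrays came from the same cell line, and the comparison asks which genes differ in expression between MYC siRNA and control siRNA.

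DNA repair pathways divide the work by the kind of lesion. Excision repair cuts out a damaged base or a bulky adduct and fills the gap, mismatch repair corrects errors left by replication, and homologous recombination and end joining rejoin broken chromosomes, the first from a sister copy and the other by direct ligation. ATM and ATR are kinases that report breaks and stalled forks to the checkpoint kinases CHEK2 and CHEK1, and many repair genes are transcribed most strongly in dividing cells.

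Of the 51 genes, 47 had a probe set that names 1 gene only, and 44 of these had a signal above 50 in at least 1 array. RAD52, XRCC2 and XRCC3 were at or under 50 in both arrays, so no ratio is given for them. PMS2 was measured here only by probe sets that also name another gene, and BRCA2, FANCA and FANCD2 were not analysed here. A signal is the MAS5 value of a probe set in arbitrary units. Each array was scaled to a mean of 100, taken without the highest and lowest 2% of signals. Signals under 50 were set to 50 before MYC siRNA was divided by control siRNA, and each gene is represented by its probe set with the highest mean signal. With 1 array per condition the ratios could not be checked in replicates, and they carry no p-value. The only spread available is that between probe sets of the same gene, whose SD of the log2 ratio was 0.27, 0.23 and 0.18 in the dim, middle and bright groups of 4040 genes with several probe sets. It leaves out the variation between cultures.

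MYC, the targeted gene, had a signal of 1640 with MYC siRNA and 1963 with control siRNA, a log2 ratio of -0.26, on its single probe set. The SD between probe sets of bright genes was 0.18. MYC was lower by less than a log2 ratio of 0.32, a drop that 17% of all genes above 50 reached. The paper reports knockdown of MYC by siRNA, with an immunoblot of the protein, and lower expression of curated MYC target genes. Of 12 markers of colon epithelium, 9 were above 50, including the keratins KRT8, KRT18 and KRT20, EPCAM and CDH1, while CDX1, CDX2 and GPA33 were not. Their summed signal was 42291 with MYC siRNA and 36373 with control siRNA. Of 14 markers of fibroblasts, leukocytes and endothelium, only COL1A1 exceeded 50, at 78.9 with MYC siRNA and 94.7 with control siRNA, and the summed signal was 170 with MYC siRNA and 206 with control siRNA. The log2 ratio also varied with signal, and when all genes were divided into 5 groups of like size by signal, the dimmest group had a median of 0.15 and the brightest one of -0.10.

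The promoter sequences of the base excision repair genes are shown first, because the members of that pathway were divided by them. MYC binds DNA with its partner MAX at the E-box, whose best-known form is CACGTG, a sequence that reads the same on both strands. RefSeq promoter windows (GRCh38.p14) were found for 46 of the 51 genes, not for POLB, NBN, XRCC5, PRKDC and FANCI, and the 250 bases before each start site were searched. CACGTG was present for 7 of the 46 genes (15.2%), compared with 9.73% of 15843 protein-coding genes with a window and 12% of the 7359 of these above 50. Of those 7 genes, 5 act in base excision repair, namely APEX1, LIG3, NTHL1, TDG and UNG. The other 2 were ERCC6 and BRCA2. A second motif, TTTCGCGC or TTTGGCGC, was searched in the same bases. It was present for 1 of the 46 genes (2.17%), MSH3, compared with 1.69% of the 15843 genes. The stretches of 30 bases around the E-box follow for the 6 measured genes, 5′ to 3′ on the strand of the gene, with the E-box in capitals.
APEX1 (chr14:20455109-20455138, plus strand): aagcgtctccgtCACGTGgtgtcagacaga
APEX1 (chr14:20455170-20455199, plus strand): cgcgcctctgatCACGTGaccaggtccgct
APEX1 (chr14:20455191-20455220, plus strand): aggtccgctaccCACGTGggggctcagcgt
LIG3 (chr17:34980428-34980457, plus strand): gcaactacgaccCACGTGgcagacgggggc
NTHL1 (chr16:2047859-2047888, minus strand): cgatccttgcatCACGTGacggggccgcat
TDG (chr12:103965780-103965809, plus strand): gctgtcctacatCACGTGacggccagtacg
UNG (chr12:109097928-109097957, plus strand): ccaaatagcctcCACGTGttcaaaatagcc
UNG (chr12:109098113-109098142, plus strand): ccgcgaaaagacCACGTGgggacgcggtgg
ERCC6 (chr10:49539153-49539182, minus strand): gtccctccaaacCACGTGgtcttgcccgtg

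APEX1 held 3 E-boxes, beginning 105, 44 and 23 bases before the start, and the whole stretch of 250 bases is printed below it because no other member held as many. PARP1, the member with the lowest ratio, held none, and its stretch is given beside it.
APEX1 (chr14:20454976-20455225, plus strand): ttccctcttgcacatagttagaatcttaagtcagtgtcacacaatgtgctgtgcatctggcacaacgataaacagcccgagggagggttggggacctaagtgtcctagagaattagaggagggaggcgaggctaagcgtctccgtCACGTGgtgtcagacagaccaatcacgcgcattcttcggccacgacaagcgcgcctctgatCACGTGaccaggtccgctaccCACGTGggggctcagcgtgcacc
PARP1 (chr1:226408094-226408343, minus strand): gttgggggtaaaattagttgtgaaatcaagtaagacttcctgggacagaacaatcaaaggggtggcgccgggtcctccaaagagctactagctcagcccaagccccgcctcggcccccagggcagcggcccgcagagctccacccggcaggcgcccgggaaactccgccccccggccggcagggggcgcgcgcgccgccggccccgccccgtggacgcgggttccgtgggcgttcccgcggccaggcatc

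The 44 measured genes were more often lower than higher with MYC siRNA, but by small amounts. In direction, 28 were lower and 16 higher, so 63.6% were lower. Of the 8917 genes above 50, 46.5% were lower and 53.5% higher, and the median log2 ratio was -0.07 for the members and 0.03 for all genes. At 1.5-fold, 1 member was lower (PARP1), where the share among all genes was 5.72%, and 2 were higher (ERCC1 and MGMT), where it was 10.4%. By its brightest probe set, no member passed the 2-fold threshold that the study used, which 0.695% of all genes passed downwards and 2.73% upwards. Of the single probe sets of members, 1 passed it, a dimmer one of ERCC1 (2.58-fold higher). For its networks the study averaged the ratios of a gene, and by the mean linear ratio over probe sets ERCC1 passed 2-fold (log2 ratio 1.05). At a smaller log2 ratio of 0.32 in either direction, 7 members were lower, where the share among all genes was 17%, and 6 were higher, where it was 24.2%. Beyond 1 SD between probe sets, 18 members were lower (40.9%, beside 25.4% of all genes) and 9 higher (20.5%, beside 31.3%). Beyond 2 SDs, 5 members were lower (11.4%, beside 11.2% of all genes), namely PARP1, NTHL1, TDG, DDB1 and CHEK2, and 2 were higher (4.55%, beside 15.6%), ERCC1 and MGMT. The members beyond 2 SDs were thus about the same share as that of all genes on the lower side and a smaller one on the higher side. Leaving out genes whose brighter array was under 100 gave 27 of 37 members lower (73%), beside 48.8% of all genes. A floor of 100 gave the same share, and in the other alternatives of processing it lay between 61.4% and 66%. Both settings leave out dim genes, and of the 8 members in the dimmest of the 5 groups by signal 6 were higher.

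**Figure D1:**
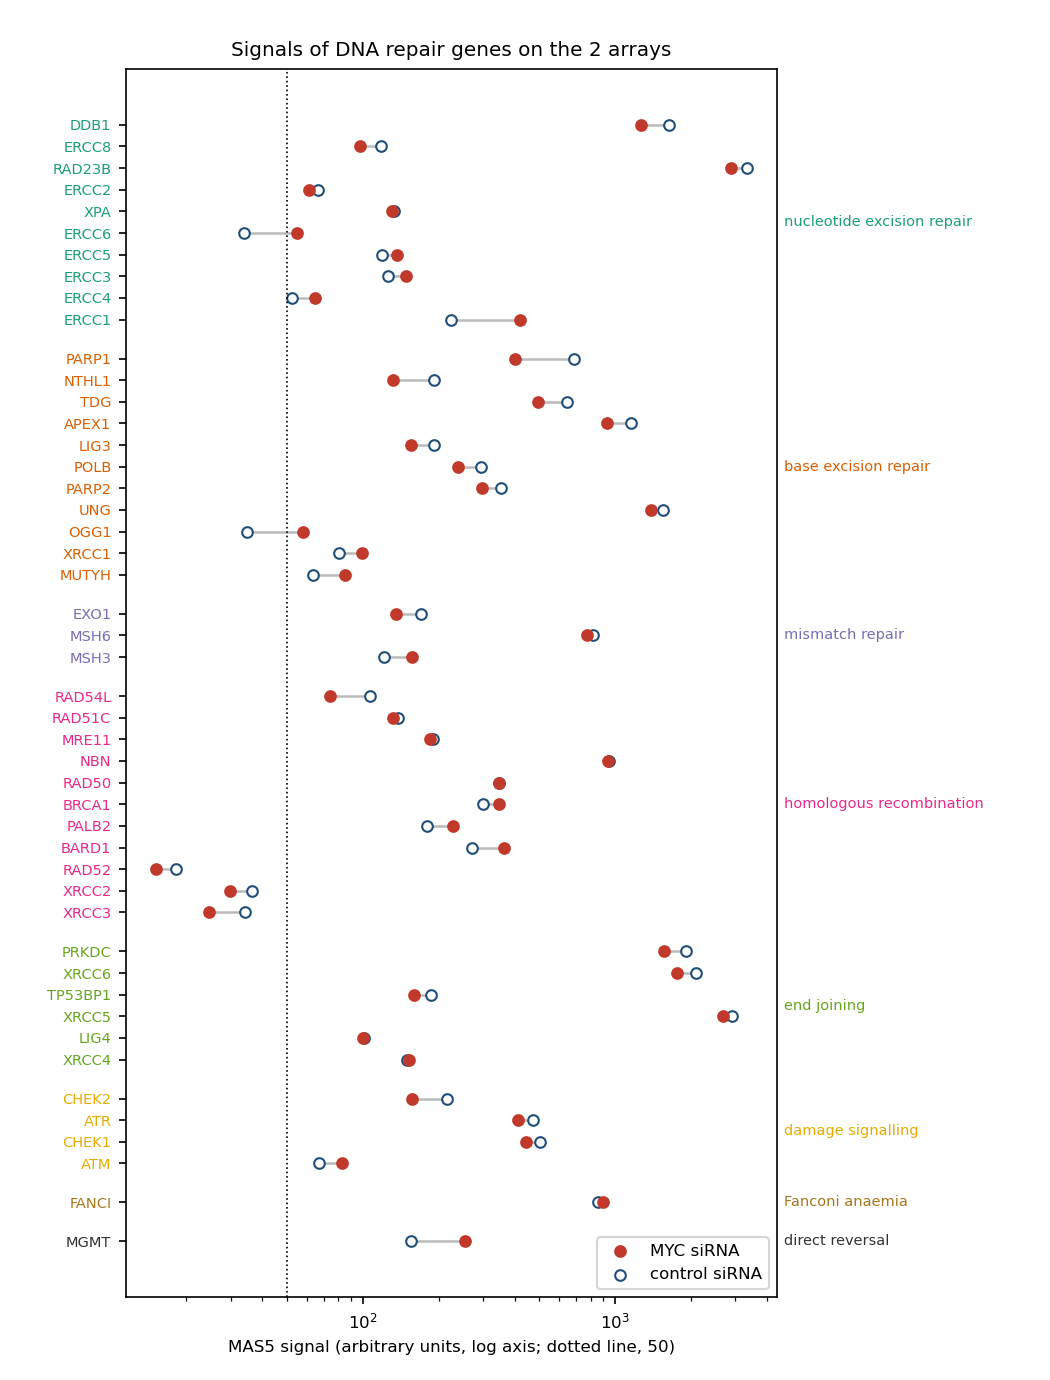
MAS5 signal (x axis, log scale, arbitrary units) of the 47 repair genes measured by a probe set naming 1 gene, with MYC siRNA (red filled points) and control siRNA (open points), by pathway and, within it, by ratio. The dotted line marks 50. PARP1 lies at 403 with MYC siRNA and 690 with control siRNA, ERCC1 at 422 and 224.

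Base excision repair was the pathway with the lowest median. Of its 11 measured genes 8 were lower and 3 higher, with a median log2 ratio of -0.31 (0.03 over all genes). PARP1, which binds DNA strand breaks and marks them with poly(ADP-ribose), had 403 with MYC siRNA and 690 with control siRNA. It was 1.71-fold lower (log2 ratio -0.78), and 2.25% of all genes had a ratio as low. PARP2, its closest relative in repair, was lower in all 3 of its probe sets, with 296 against 355, 294 against 337 and 198 against 228. The log2 ratio of PARP1, on its 1 probe set, was 0.51 below that of PARP2. The SDs between probe sets at their signals, 0.18 and 0.23, are within a gene and do not measure the spread of a difference between genes.

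The glycosylases, which remove the damaged base, went both ways. NTHL1, which excises oxidized pyrimidines, had 132 with MYC siRNA and 192 with control siRNA (1.46-fold lower). TDG, which removes thymine and modified cytosines, had 496 with MYC siRNA and 647 with control siRNA in its brighter probe set and 49.1 and 59.4 in the other, 1.31-fold lower and, with 49.1 under the floor, at least 1.19-fold lower. UNG, the uracil-DNA glycosylase, had 1387 with MYC siRNA and 1549 with control siRNA, a log2 ratio of -0.16 within the SD of 0.18. MUTYH, which removes adenine opposite 8-oxoguanine, had 85.3 with MYC siRNA and 63.7 with control siRNA, 1.34-fold higher. OGG1, which removes 8-oxoguanine itself, had 58.2 with MYC siRNA and 34.9 with control siRNA, so it was at least 1.16-fold higher, a log2 ratio of 0.22 within the SD of 0.27. A second probe set of OGG1 read 39.3 with MYC siRNA and 46.4 with control siRNA, both under 50. MUTYH and OGG1 are dim, and the median log2 ratio of genes in their signal group was 0.15.

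The later steps of the pathway were mostly lower. APEX1, the endonuclease that cuts at the abasic site, had 933 with MYC siRNA and 1162 with control siRNA, a log2 ratio of -0.32. POLB, the gap-filling polymerase, had 239 and 296 in the same order (1.24-fold lower). LIG3, which seals the nick, had 155 with MYC siRNA and 192 with control siRNA (1.24-fold lower). It was lower in 4 of its 5 probe sets above 50, the exception reading 127 and 115. XRCC1, the scaffold that holds LIG3, had 99.6 with MYC siRNA and 80.2 with control siRNA, 1.24-fold higher. By their brightest probe sets the partners went opposite ways, by 0.62 on the log2 scale. XRCC1, with 1 probe set, is in the dimmest of the 5 groups by signal, whose median log2 ratio was 0.15. The SD between probe sets does not measure the spread of a difference between genes.

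Set beside the promoter letters printed above, all 5 base excision repair genes with CACGTG were lower, and their median log2 ratio was -0.32. Of the other 5 with a window, 2 were lower (PARP1 and PARP2) and 3 higher (MUTYH, OGG1 and XRCC1), with a median of 0.22. Over all genes above 50 with a window the difference was small: 451 of the 884 with CACGTG were lower (median -0.02) and 2985 of the 6475 without it (median 0.04). ERCC6, the sixth measured member with the motif, was at 54.9 with MYC siRNA and 33.9 with control siRNA. A match in the searched bases is a description of letters, not a sign of binding, and this division was made after the ratios were seen. MUTYH, OGG1 and XRCC1 are in the dimmest of the 5 groups of genes by signal, and the part of signal level in the division was not tested.

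**Figure D2:**
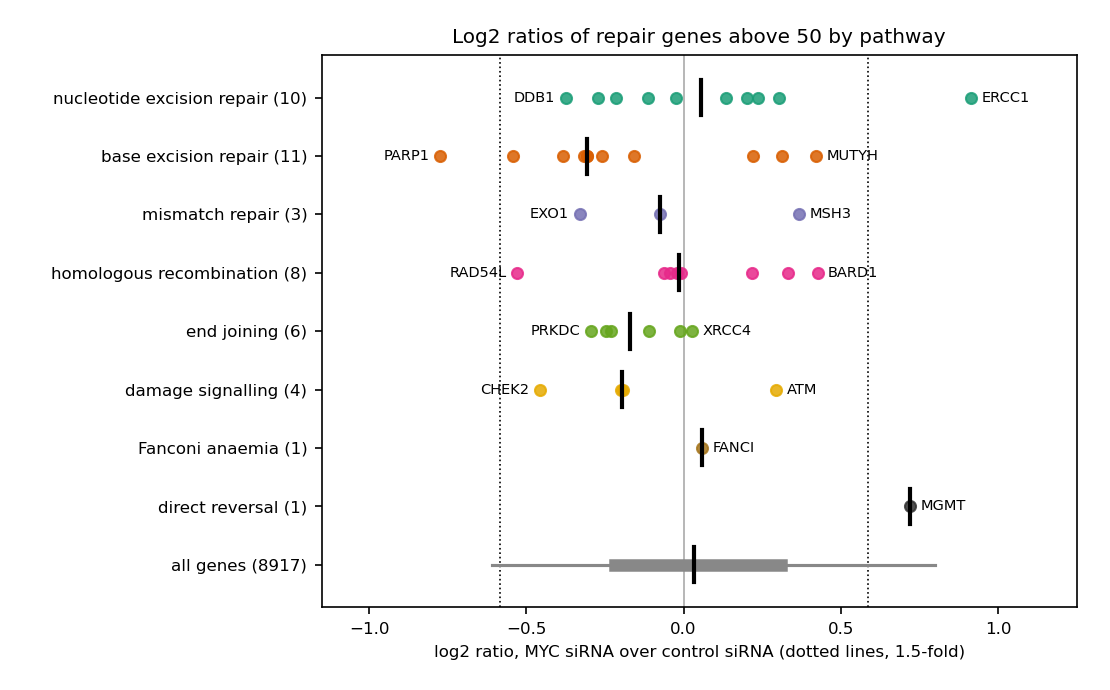
Each repair gene above 50 (points) by pathway, placed by its log2 ratio, MYC siRNA over control (x axis), with the number of genes in brackets. Black bars are medians, the grey thick and thin bars span the middle 50% and 90% of all 8917 genes, and dotted lines mark 1.5-fold. The base excision repair median lies at -0.31 and that of all genes at 0.03.

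Nucleotide excision repair was split evenly, with 5 of its 10 genes lower and 5 higher and a median log2 ratio of 0.05. The largest difference among all members was here. ERCC1, which with ERCC4 forms the nuclease that cuts 5′ of the lesion, had 422 with MYC siRNA and 224 with control siRNA, 1.89-fold higher. Its other probe sets read 233 against 134 and 153 against 59.1, which are 1.74-fold and 2.58-fold higher, so all 3 had the same direction. ERCC1 overlaps POLR1G, a subunit of RNA polymerase I, which was 1.31-fold lower. ERCC4 had 64.5 with MYC siRNA and 52.3 with control siRNA, a log2 ratio of 0.30, lower by 0.61 than that of its partner ERCC1.

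DDB1 and RAD23B, which work with the lesion sensors DDB2 and XPC, were lower. DDB2 and XPC themselves, which are not members, were higher, with log2 ratios of 0.36 and 0.21 (XPC was singled out after its values were seen). DDB2 had 129 with MYC siRNA and 101 with control siRNA. XPC had 85.5 and 74.0 in that order, a difference within the SD of 0.27 for dim genes. DDB1 and RAD23B are in the brightest of the 5 groups by signal, whose median was -0.10, and the part of signal level was not tested. DDB1, the adaptor that links the damage sensor to a ubiquitin ligase, had 1268 with MYC siRNA and 1644 with control siRNA, 1.30-fold lower. RAD23B, which stabilizes the sensor XPC, had 2883 and 3349 in that order in its brightest probe set. Its other probe sets above 50 were 1.45-fold and 1.21-fold lower, so it was lower in all 3. ERCC8 (CSA), of the branch that serves stalled transcription, had 97.7 with MYC siRNA and 118 with control siRNA. Its partner in that branch, ERCC6 (CSB), was at least 1.10-fold higher, with its signal of 33.9 in control cells under the floor of 50.

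The remaining genes of the pathway differed little. The helicases of TFIIH, which open the DNA around the lesion, were ERCC3 with 148 with MYC siRNA and 126 with control siRNA and ERCC2 with 61.5 and 66.5 in the same order. ERCC5, the nuclease that cuts on the 3′ side, had 137 with MYC siRNA and 119 with control siRNA. XPA, which verifies the damage, had 130 with MYC siRNA and 133 with control siRNA. All 4 lay within 1 SD between probe sets.

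MGMT, the single gene of direct reversal, takes the methyl group from O6-methylguanine onto itself. It had 255 with MYC siRNA and 155 with control siRNA, 1.65-fold higher on its only probe set, and 93.3% of all genes had a ratio no higher.

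In mismatch repair the alternative partners of the mismatch sensor differed. MSH3, which recognizes larger loops, had 157 with MYC siRNA and 121 with control siRNA (1.29-fold higher), and its second probe set read 131 and 107. MSH6, which recognizes single mismatches, had 774 with MYC siRNA and 815 with control siRNA and in its second probe set 350 and 363, log2 ratios of -0.07 and -0.05. The difference between MSH3 and MSH6 was 0.44 on the log2 scale. The median log2 ratio of genes of like signal was 0.10 for MSH3 and -0.10 for MSH6, and the part of signal level was not tested. EXO1, the exonuclease that removes the stretch with the error and also resects breaks, had 136 with MYC siRNA and 171 with control siRNA, 1.26-fold lower.

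In homologous recombination 5 of 8 measured genes were lower and 3 higher, and the median log2 ratio of -0.01 changed sign in several alternatives. The 3 higher genes were BRCA1, BARD1 and PALB2, which act as one assembly to load the recombinase. BRCA1 had 348 with MYC siRNA and 299 with control siRNA, and its second probe set read 98.0 and 79.7. BARD1, its obligate partner, had 364 with MYC siRNA and 271 with control siRNA (1.34-fold higher), and was higher in all 3 of its probe sets, by log2 ratios between 0.21 and 0.43. PALB2, which bridges BRCA1 to BRCA2, had 227 with MYC siRNA and 180 with control siRNA, 1.26-fold higher. All 6 probe sets of the 3 genes had 1 direction, and the ratio of BRCA1 was within 1 SD between probe sets.

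MRE11, RAD50 and NBN, which form the complex that senses and trims broken ends, were close to even in their brightest probe sets. MRE11 had 184 with MYC siRNA and 190 with control siRNA, and RAD50 had 347 and 348 in the same order. NBN had 938 with MYC siRNA and 951 with control siRNA, but its other probe sets read 356 against 536, 228 against 259 and 185 against 236. The log2 ratio of NBN ran between -0.59 and -0.02 over these 4 probe sets, so its size cannot be stated from 1 of them. RAD54L, a motor protein of strand exchange, had 74.3 with MYC siRNA and 107 with control siRNA, 1.44-fold lower. RAD51C, a paralogue of the recombinase, had 132 with MYC siRNA and 138 with control siRNA, and 110 and 141 in its second probe set.

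**Figure D3:**
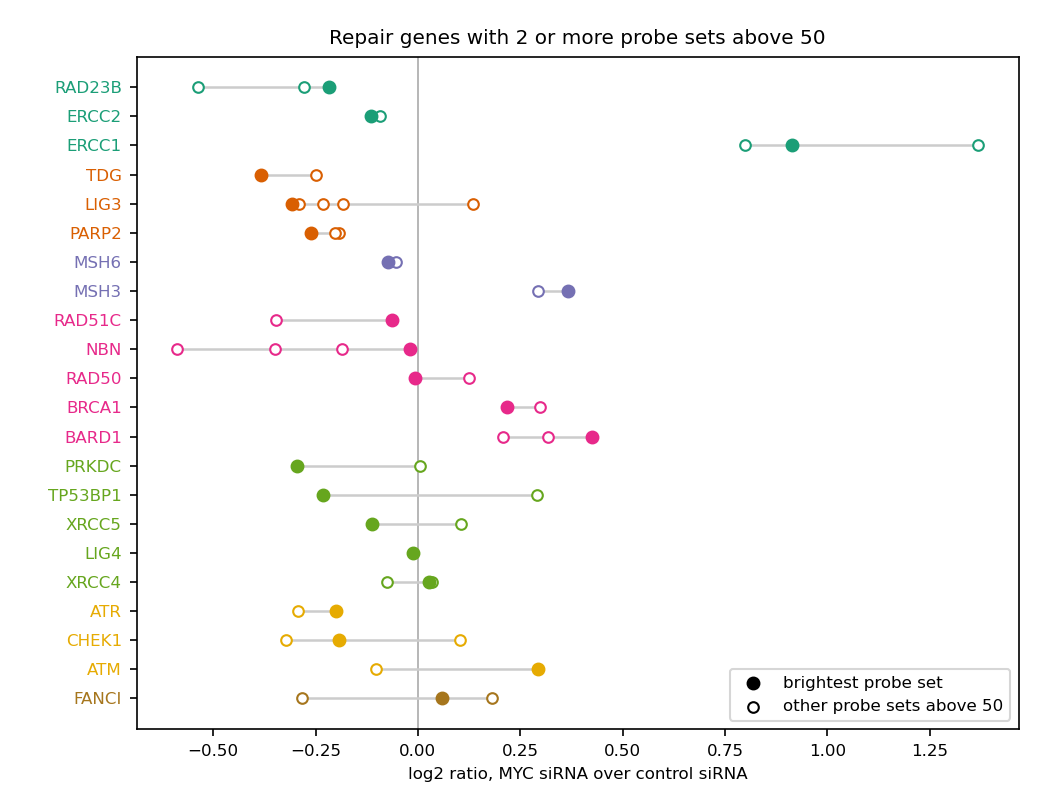
Every probe set above 50 of the 22 repair genes that have 2 or more, placed by its log2 ratio, MYC siRNA over control (x axis), with the brightest probe set filled and the others open. Colours mark the pathway as in the plot of signals. All 3 probe sets of ERCC1 lie right of 0, and those of 9 genes lie on both sides of it.

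End joining had the narrowest range of the pathways with more than 3 genes. Of 6 genes 5 were lower and 1 higher, the log2 ratios ran between -0.30 and 0.03, the median was -0.17, and none passed the smaller threshold of 0.32. XRCC5 and XRCC6 encode the Ku proteins that cap a broken end. XRCC6 had 1764 with MYC siRNA and 2094 with control siRNA, and XRCC5 had 2683 and 2897 in that order. The second probe set of XRCC5 went the other way, with 1539 with MYC siRNA and 1432 with control siRNA. PRKDC, the kinase recruited by Ku, had 1564 with MYC siRNA and 1920 with control siRNA in one probe set and 753 and 750 in another.

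XRCC5, XRCC6 and PRKDC are in the brightest of the 5 groups of genes by signal, whose median log2 ratio was -0.10. XRCC4 and LIG4, the ligase complex that closes the break, were nearly even. LIG4 read 100.3 with MYC siRNA and 101 with control siRNA in one probe set and 82.7 and 83.4 in the other. XRCC4 read 153 and 150 in its brightest. TP53BP1, which favours end joining by holding back resection, had 159 with MYC siRNA and 187 with control siRNA, but 74.5 and 60.9 in its second probe set, so its direction is uncertain.

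Of the 4 signalling kinases, 3 were lower and 1 higher, with a median log2 ratio of -0.20. CHEK2 had 157 with MYC siRNA and 216 with control siRNA, 1.37-fold lower. ATR had 412 with MYC siRNA and 474 with control siRNA and, in its second probe set, 228 and 279. CHEK1 had 442 with MYC siRNA and 505 with control siRNA, and its other probe sets read 390 against 488 and 245 against 228, so 2 were lower and 1 higher. The probe sets of ATM disagreed, with 82.5 with MYC siRNA and 67.3 with control siRNA in one and 66.9 and 71.8 in the other. FANCI, the measured gene of the Fanconi anaemia pathway, which unhooks crosslinked strands, had 892 with MYC siRNA and 856 with control siRNA. Its other probe sets read 683 against 603 and 231 against 281, in opposite directions.

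**Figure D4:**
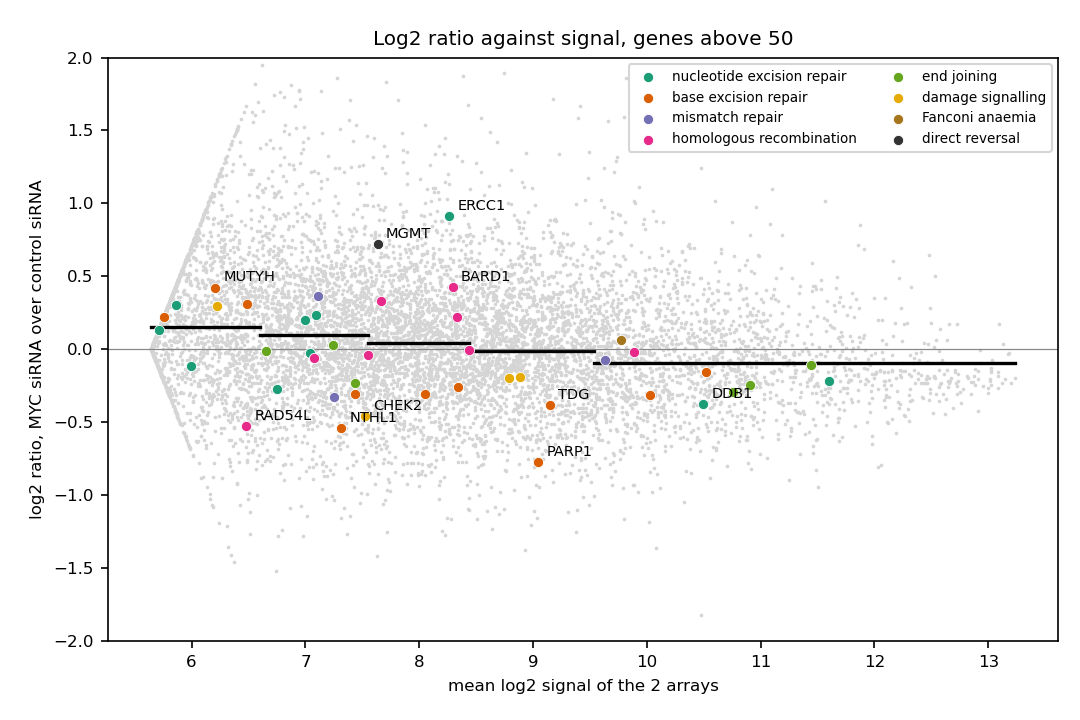
The log2 ratio, MYC siRNA over control (y axis), against mean log2 signal (x axis) for all genes above 50 (grey) and of the 44 repair genes (coloured by pathway). Black lines are medians of 5 equal groups by signal, and 10 grey points lie outside the y axis. ERCC1 and MGMT lie above the bulk of the grey points, and PARP1 below.

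Other genes of the same pathways were taken from lists that hold 115 genes beyond the members. Of 92 above 50, 49 were lower and 43 higher, so 53.3% were lower, beside 46.5% of all genes, and the median log2 ratio was -0.03. At 1.5-fold 7 were lower and 5 higher, where the shares among all genes were 5.72% and 10.4%. The difference between these genes and the members was not tested. In base excision repair 10 of 14 were lower (median -0.08), and in end joining 6 of 7 (median -0.14). In homologous recombination 11 of 14 were higher (median 0.14), among them SFR1, an accessory factor of the recombinase, with 362 with MYC siRNA and 254 with control siRNA. GEN1, a resolvase of crossed strands, was 1.35-fold higher and EME1, a subunit of another resolvase, 1.28-fold lower, with RAD54B at a log2 ratio of -0.07. The second probe set of EME1 was nearly even, at a log2 ratio of -0.02.

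Subunits of DNA polymerase delta, which resynthesizes DNA in several repair pathways and in replication, went opposite ways. POLD2 had 365 with MYC siRNA and 668 with control siRNA, 1.83-fold lower. POLD4, the smallest subunit, had 510 with MYC siRNA and 238 with control siRNA, 2.14-fold higher, and was the only gene of these lists beyond 2-fold. POLD3 was 1.28-fold higher, and RFC3, of the loader of the sliding clamp, 1.42-fold lower. The 12 genes of that list, which serve mismatch repair, had a median log2 ratio of -0.17, with 9 lower.

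In nucleotide excision repair 8 of 17 further genes were lower and 9 higher (median 0.01). GTF2H3 and CCNH, of the TFIIH complex, were 1.53-fold lower each, with 393 and 507 with MYC siRNA and 602 and 774 with control siRNA. The lesion sensor DDB2 was 1.28-fold higher and the XPC partner CETN2 1.27-fold higher. Further genes of base excision repair included the alkyladenine glycosylase MPG, 1.52-fold higher, and HPF1, a cofactor of PARP1, 1.28-fold higher, while APTX, which cleans failed ligation ends, was 1.32-fold lower and the ligase LIG1 1.15-fold lower. ALKBH2, a demethylase of direct reversal, had 98.4 with MYC siRNA and 183 with control siRNA (1.86-fold lower), opposite to MGMT, and ALKBH3 had 247 and 231 in the same order.

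Among signalling genes, 7 of 14 were lower and 7 higher (median 0.01). WEE1, the kinase that restrains CDK1, had 1064 with MYC siRNA and 637 with control siRNA, 1.67-fold higher. CDC25A, the phosphatase that opposes it, had 111 with MYC siRNA and 197 with control siRNA, 1.77-fold lower, although another of its 3 probe sets gave a log2 ratio of -0.08. TIPIN, of the fork protection complex, was 1.55-fold lower, and RAD9A, of the checkpoint clamp, 1.23-fold higher. In the Fanconi anaemia list 5 of 12 were lower and 7 higher (median 0.05), with FANCF 1.71-fold and the helicase BRIP1 1.66-fold higher and FANCC 1.52-fold and FANCG 1.23-fold lower. The second probe sets of FANCF and BRIP1 gave smaller log2 ratios of 0.30 and 0.07. In end joining RNF8 was 1.34-fold lower, POLQ had 173 with MYC siRNA and 216 with control siRNA, DCLRE1C was nearly even at a log2 ratio of -0.02, and RNF168 was 1.13-fold higher.

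Because many repair genes are transcribed with the cell cycle, genes of replication and S phase were read beside them. Of 33 above 50, 26 were lower (78.8%, beside 46.5% of all genes) and 7 higher. Their median log2 ratio was -0.21, beside 0.03 over all genes. They ran between ORC1, with 110 with MYC siRNA and 156 with control siRNA, and the cyclin CCNE2, with 520 and 323. Over all genes the brightest of the 5 groups by signal had a median of -0.10, and the part of signal level here was not tested. RAD54L, EXO1, CHEK1 and CHEK2 were lower as most of these were, and BRCA1, BARD1 and PALB2 were higher. These members were picked by no set rule. The probe sets of CHEK1 went both ways, and with a floor of 100 the log2 ratio of RAD54L was -0.10. The part of the cell cycle in any of these ratios was not tested.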

How the data were processed

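The authors hybridized 1 Affymetrix human 3′ expression array per condition. Per the labels, the deposited intensity values are linear signals of the MAS5 algorithm from the R package affy 1.40.0, which the authors scaled to a mean target level of 100. The table holds no detection calls. Beyond this scaling, which gives both arrays the same mean, nothing was normalized between the arrays for the values reported. Of 54675 probe sets, 41097 are paired with 1 gene by the platform annotation and were used, 1801 are paired with several and 11777 are not listed. Symbols were updated by gene identifier to RefSeq (GRCh38.p14).

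As in the study's methods, signals under 50 were set to 50 and the ratio to control was taken. A gene took its probe set with the highest mean signal. It was counted where 1 array exceeded 50, and the number of arrays limits the precision. A difference counted at 1.5-fold, with 2-fold and a log2 ratio of 0.32 beside it. Named are all measured members, MYC, and of each other list the lowest 2 and highest 2 ratios with a brighter array of at least 100 (1 each for replication). Members, lists and rules were chosen with earlier results of these data known, and the promoter search was added later. The steps were tested on a simulated array made from the control array with known folds. That test checks the computation, not the precision of the reported ratios. Alternatives were floors of 25 and 100, no floor with 1 added, median centring, quantile normalization, loess (span 0.3), no _s_at or _x_at probe sets, means over probe sets, and a brighter array of at least 100. Software was Python 3.11.15 with statsmodels 0.14.6, pandas 2.3.3, numpy 2.4.6 and matplotlib 3.10.9.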

Additional observations from a re-analysis of the deposited data

How the results depend on the processing

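Of the 44 members, 36 kept the sign of their log2 ratio in each of the up to 10 alternatives that gave a value, and 8 changed it in at least 1 (ATM, ERCC6, FANCI, NBN, RAD50, TP53BP1, XRCC4 and XRCC5). None of these 8 passed a log2 ratio of 0.32 as reported. Across the alternatives the log2 ratio ran between -0.81 and -0.77 for PARP1, 0.80 and 1.05 for ERCC1 and 0.67 and 0.72 for MGMT. PARP1 and MGMT have 1 probe set each, above every floor. The floors of 25 and 100 and the means over probe sets therefore could not change their ratios. Likewise, 22 of the 44 members had only 1 probe set above 50, so means over probe sets left them as they were. The narrow ranges and kept signs are in part fixed by this. Members lower by at least 1.5-fold were 3 after quantile normalization and 3 after loess (NTHL1 and RAD54L beside PARP1), against 1. Members higher were 4 with a floor of 25 and 4 with no floor (ERCC6 and OGG1 beside ERCC1 and MGMT), against 2. By the brightest probe set the counts at 2-fold were 0 lower and 0 higher, and at a log2 ratio of 0.32 they were 7 and 6. With the log2 and the linear mean over probe sets ERCC1 passed 2-fold, at log2 ratios of 1.03 and 1.05. The median of all members was -0.11 with a floor of 100, with no floor and without _s_at and _x_at probe sets, and -0.16 for a brighter array of at least 100, against -0.07. That of nucleotide excision repair changed sign to -0.03 with a floor of 100 and for the brighter array of at least 100, -0.02 after quantile normalization and -0.05 after loess. That of homologous recombination did so to 0.01 after quantile normalization and with both means over probe sets, 0.0032 after loess and 0.23 in the 4 genes left without _s_at and _x_at probe sets. FANCI, alone in its pathway, was at -0.01 and -0.0012 with the log2 and the linear mean over probe sets. With either mean, base excision repair was at -0.22 (against -0.31) and end joining at -0.01 (against -0.17). In the other alternatives base excision repair lay between -0.34 and -0.28. The causes were not tested. Dim genes are limited by the floor, and with 1 array per condition the variation between cultures is unknown.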

Other observations

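Of the 44 measured members, 19 overlap another protein-coding gene in the RefSeq annotation, and several of these neighbours had a ratio of the other sign. TOE1, which overlaps MUTYH, had 89.2 with MYC siRNA and 154 with control siRNA, 1.73-fold lower, whereas MUTYH was 1.34-fold higher. PIP4P1, which overlaps APEX1, had 253 with MYC siRNA and 191 with control siRNA, a log2 ratio of 0.40, whereas that of APEX1 was -0.32. LRRC41, which overlaps RAD54L, had 123 with MYC siRNA and 107 with control siRNA (log2 ratio 0.21), whereas that of RAD54L was -0.53. TADA3, which overlaps OGG1, had 230 with MYC siRNA and 172 with control siRNA, and both were higher. These neighbours were chosen after their values were seen, and whether their RNA reached the members' probes was not tested.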
